A study of Rattus norvegicus with 2 samples.

Results

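The genes described here encode splicing factors and RNA-binding ribonucleoproteins. They were chosen by symbol: every transcript row of the deposited expression table whose gene name begins with Hnrn, Srsf, Sfrs, Snrp, Sf3a or Sf3b, plus Smndc1. This gave 68 of the table's 32767 transcript rows and 45 of its 16783 gene symbols, namely 14 heterogeneous nuclear ribonucleoprotein (hnRNP) genes, 11 genes of serine/arginine-rich (SR) proteins, 11 genes of small nuclear ribonucleoprotein (snRNP) components, 8 genes of the SF3a and SF3b complexes, and Smndc1. No symbol in the table began with Sfrs. Levels were compared in H9c2 cells between 1 library transfected with empty vector and 1 library transfected with a plasmid for the beta4 subunit of voltage-gated calcium channels, which Cacnb4 encodes. Both groups were the same line, labelled strain BD1X and tissue heart/myocardium, and both were transfected. The sample titles do not state whether the beta4 plasmid is built on the same vector. H9c2 is a single line derived from embryonic rat heart.

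Splicing removes introns from nuclear RNA. The spliceosome that does so is built from small nuclear RNAs, most of them wrapped in a ring of Sm proteins encoded by Snrp genes, and the SF3a and SF3b complexes hold the U2 particle at the branch point of the intron. SR proteins bind exons and mostly favour their inclusion, hnRNPs coat new transcripts and often favour skipping, and the balance of these families helps to set which isoforms a cell makes. Smndc1 encodes a Tudor domain protein related to the survival motor neuron protein, and in human cells it is needed for spliceosome assembly. Many genes of SR proteins and hnRNPs make alternative transcripts from the same locus, so values are given here both per transcript row and summed per gene.

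The value in each library is in fragments per kilobase of transcript scaled to the mapped reads (FPKM), a unit read from the table's layout because its header names none. With 1 library per group no difference has a replicate check, no p-value was computed, and fewer cells of a type and less RNA per cell cannot be told apart. The log2 ratio is that of FPKM + 1 in the beta4 library over FPKM + 1 in the empty vector library. Genes that reached 1 FPKM in either library count as measured. The empty vector library had 13569897 mappable reads and the beta4 library 14939784, and Cacnb4 was at 4.37 and 6266 FPKM. Of 13 heart muscle markers 5 were measured, with Actc1 at 225 and 192 FPKM, Tnnt2 at 214 and 309 FPKM and Myh6, the adult atrial myosin, at 0.0407 and 0.0974 FPKM. By 0.32 or more on the log2 scale, 1 of the 5 was higher with beta4, Tnnt2. Also 1 was lower by that size, Tnni3 at 2.42 and 1.46 FPKM. Of 10 skeletal myoblast and muscle markers 9 were measured, with Myod1 at 89.8 and 101 FPKM. Higher with beta4 by 0.32 or more were 4 of the 9. Of all measured genes 9.78% were higher and 10.1% lower by that size. Those 4 skeletal markers were Myog at 51.3 and 71.9 FPKM, Tnnt1 at 104 and 143 FPKM, Tnni1 at 1.65 and 2.90 FPKM, and Myh3 at 1.86 and 4.57 FPKM. Below 0 were 3 of the 9, among them Acta1, the most abundant, at 387 and 363 FPKM. Summed, the skeletal list was at 668 and 719 FPKM and the heart list at 448 and 508 FPKM, and the part of this in the results below was not tested. Markers of other cell types were not measured: 0 of 6 for leukocytes, 0 of 4 for endothelium and 0 of 6 for neurons and glia.

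Sequences are shown for the genes on which the description turns: the promoter of Smndc1, the gene whose transcript rows differed most, and that of Snrpn, the member past 2-fold in its sum. Both are 300 bases from 250 before to 50 after the gene's start, taken from RefSeq on build GRCr8, minus strand, 5′ to 3′. Capitals mark matches on either strand to TGACGT, the core of the cAMP response element, or to CACGTG, an E-box. These motifs were chosen with the results known. The table's own loci are on rn4, and it does not tie a transcript row to a start site.
Smndc1, chr1:262406055-262406354: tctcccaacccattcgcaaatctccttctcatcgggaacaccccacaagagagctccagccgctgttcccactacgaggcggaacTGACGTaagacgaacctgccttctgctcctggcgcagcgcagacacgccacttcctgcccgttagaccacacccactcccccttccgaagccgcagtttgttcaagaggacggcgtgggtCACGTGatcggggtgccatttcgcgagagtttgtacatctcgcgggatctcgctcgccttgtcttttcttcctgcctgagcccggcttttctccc
Snrpn, chr1:120338870-120339169: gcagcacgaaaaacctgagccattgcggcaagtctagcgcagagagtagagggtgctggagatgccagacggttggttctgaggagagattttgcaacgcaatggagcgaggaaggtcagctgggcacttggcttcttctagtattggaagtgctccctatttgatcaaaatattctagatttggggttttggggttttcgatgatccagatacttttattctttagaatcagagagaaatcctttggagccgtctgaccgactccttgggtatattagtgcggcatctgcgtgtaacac

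In the Smndc1 window the TGACGT match began 165 bases before the start and the CACGTG match 45 bases before it. The Snrpn window held neither. A promoter window was found for 44 of the 45 genes, 47 windows in all since some genes have several starts. TGACGT was in the windows of 12 genes, which is 25.5% of the 47 windows, against 7.94% of all 33469 promoter windows. These were the SR genes Srsf1, Srsf3, Srsf5, Srsf6 and Srsf11, the hnRNP genes Hnrnpa2b1, Hnrnpa3 and Hnrnph2, the snRNP genes Snrpa1, Snrpd1 and Snrpg, and Smndc1. CACGTG was in the windows of Smndc1, Srsf3, Hnrnpa3, Hnrnph2 and Hnrnpm. This is 10.6% of the 47 windows, against 6.42% of all windows. Because the series' title names antiviral factors, the core of the interferon-stimulated response element, GAAA followed by any 2 bases and GAAA again, was also searched on both strands. It was in 0 of the 47 windows and in 3.92% of all windows. These matches describe letters in these windows and do not show binding.

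Smndc1 held the transcript row that the authors marked as significant. Its sum over 4 rows was 31.2 FPKM with empty vector and 33.9 FPKM with beta4, a log2 ratio of 0.12. The gene as a whole was thus nearly level, but its rows were not. The row numbered 1 in the order of the table's identifiers was at 9.004 FPKM with empty vector and 0.328 FPKM with beta4. Row 2 was listed at 0 with empty vector and was at 9.59 FPKM with beta4. Row 3, the most abundant, was at 22.2 and 24.0 FPKM, and row 4 was listed at 0 in both libraries. Rows 1 and 2 therefore stood in opposite order in the 2 libraries, while the rows other than row 3 summed to 9.004 and 9.92 FPKM.

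As a share of the gene's FPKM, row 1 was at 28.9% with empty vector and 0.965% with beta4. Row 2 was at 0% and 28.3%, and row 3 at 71.1% and 70.8%. The authors' deposited table gave row 2 a p-value of 0.000311 and a q-value of 0.0362, and marked it. It gave row 1 a p-value of 0.217 and row 3 one of 0.754. These p-values compare the reads of 2 libraries and not the conditions. All 4 rows carry the same locus, chromosome 1 from 259596307 to 259607378 on rn4, and the table does not give their exons. Whether they differ in coding sequence was therefore not analysed here. Reads shared between overlapping rows cannot be assigned from these data, so the single values of rows 1 and 2 are uncertain. This limit holds for the rows of every gene with several.

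**Figure D1:**
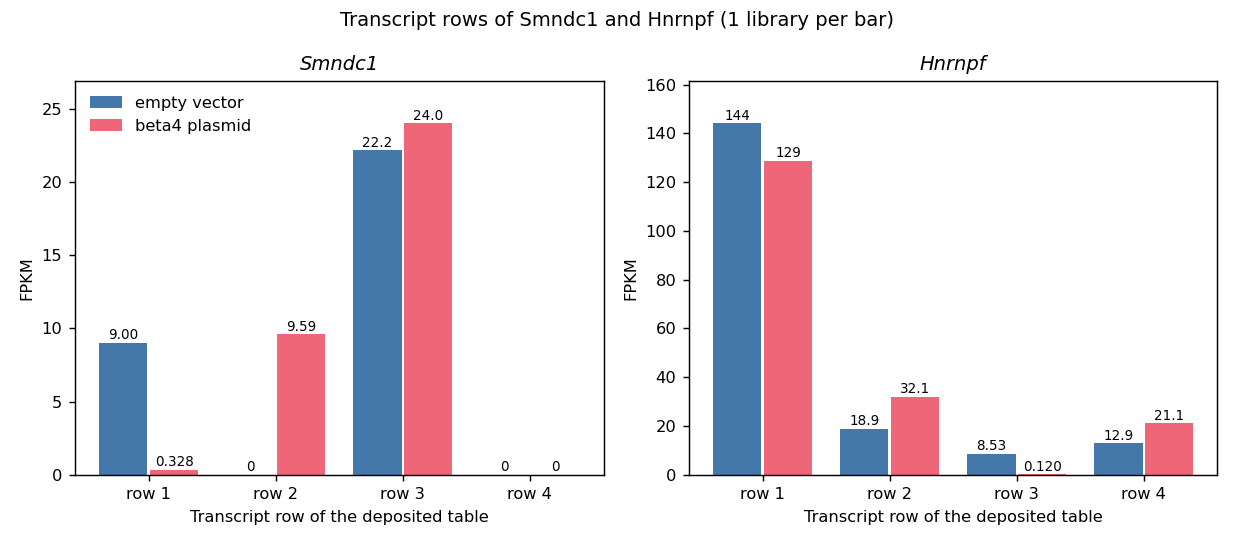
FPKM of each transcript row of Smndc1 (left) and Hnrnpf (right), with 1 bar per library, blue for empty vector and red for beta4 plasmid; rows are numbered in the order of their identifiers. Smndc1 row 1 was at 9.004 and 0.328 FPKM and row 2 at 0 and 9.59 FPKM, while Hnrnpf row 3 was at 8.53 and 0.120 FPKM.

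Marked rows were rare among the 68, as in the whole table. The authors' deposited table marked 1 of the 68 rows, beside 0.696% of all rows. It belonged to Smndc1, which was added by name with earlier results of these data known, and no row of the other genes was marked. A p-value below 0.05 stood on the same 1 row, while 1803 of all 32767 rows had one. The next smallest p-values of the authors' deposited table were 0.185 for Snrpa1 and 0.189 for a row of Hnrnpa3.

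Among the 11 genes with at least 2 rows and a sum of 5 FPKM or more in both libraries, the widest shift in a row's share was under 10 percentage points in 10, with Smndc1 the exception. Over all genes of this kind 288 of 1406, 20.5%, had a shift of 10 points or more, and 6.12% one of 20 points or more. Smndc1 passed both sizes, but it was added to the set by name, with earlier results of these data known. Its 1 in 11 can therefore not be weighed against either share. No other gene of the 11 reached 10 points. The median widest shift was 2.95 points for the 11 genes and 3.45 points for all. Rows listed at 0 with empty vector but holding 5 FPKM or more with beta4 made up 0.193% of the rows of such genes, 6 of 3116. Rows of the reverse kind, at 0 with beta4 and 5 FPKM or more with empty vector, were also 6 of 3116. Smndc1 row 2 was among the former, and since the gene was added by name that share cannot be weighed for it either.

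Hnrnpf, which binds runs of G in RNA, came next with 7.42 points. Its sum was 184 FPKM with empty vector and 182 FPKM with beta4. Row 1, the main row, was at 144 and 129 FPKM, which is 78.2% and 70.7% of the gene. Row 2 was at 18.9 and 32.1 FPKM, row 3 at 8.53 and 0.120 FPKM, and row 4 at 12.9 and 21.1 FPKM. Rows 2 and 4 were higher with beta4 and rows 1 and 3 lower, with sums that differed little. The authors' deposited table gave these 4 rows p-values of 0.673 or more and marked none of them.

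Hnrnpm had a minor row at 42.8 FPKM with empty vector and 31.0 FPKM with beta4, and a major row at 116 and 122 FPKM. The share of the minor row was 27.0% and 20.3%. Srsf5, an SR protein gene, had 3 rows of similar level, and the share of its middle row was 39.2% and 32.7%. For Snrpb, which encodes the Sm proteins B and B′, the widest shift was 3.79 points. For Hnrnpa3 it was 2.95 points, with shares pooled over rows at 2 loci and so not between transcripts of a single locus. For Srsf7 it was 2.45 points, for Srsf10 1.96 points and for Hnrnpa2b1 0.644 points. For Hnrnph2 and Hnrnpl it was 0.211 and 0.131 points. In Hnrnpa2b1, whose transcripts give the A2 and B1 proteins, the minor row held 7.59% and 8.24% of the gene, so its rows kept nearly the same proportion in both libraries.

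**Figure D2:**
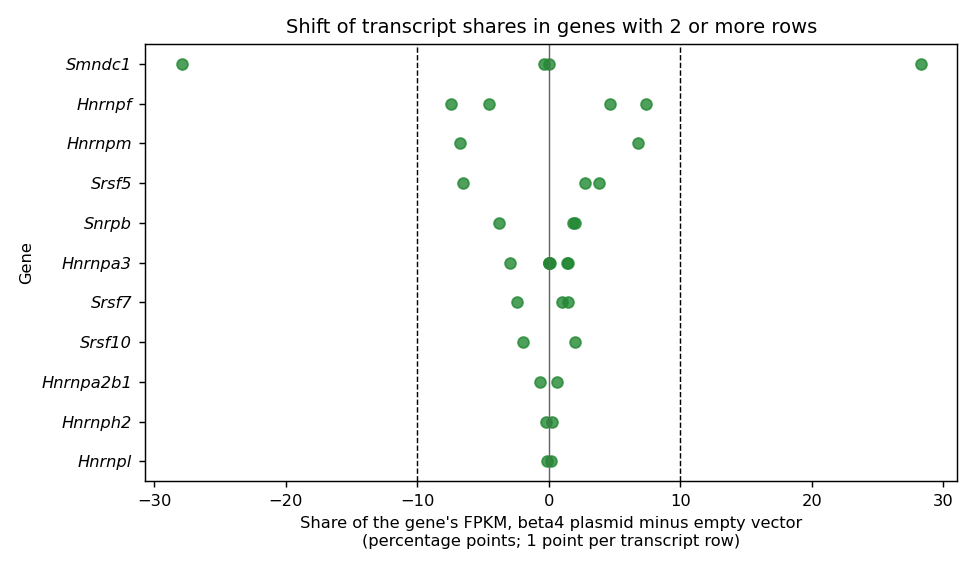
Shift in the share of each transcript row, beta4 plasmid minus empty vector, in percentage points, for the 11 genes with 2 or more rows; each point is 1 row, points at 0 included, and dashed lines mark 10 points. Smndc1 reached 28.3 points, and in the other 10 genes no row passed 7.42 points.

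Of 63 measured rows, 2 were at least 2-fold higher with beta4 and 2 at least 2-fold lower, on the scale of FPKM + 1. Over all measured transcript rows with a gene name 2.85% were 2-fold higher and 1.87% 2-fold lower. The higher rows were Smndc1 row 2 and the row of Snrpn, and the lower ones were Smndc1 row 1 and Hnrnpf row 3. Smndc1 gave a row to each count and was added by name with earlier results of these data known. The counts can therefore not be weighed against these shares.

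Summed per gene, 44 of the 45 genes were measured. The exception was Srsf12, an SR protein gene on chromosome 5, at 0.000152 and 0.00123 FPKM. In both libraries 39 of the 44 were at 20 FPKM or more. Together the 45 genes held 0.691% of the FPKM of named rows with empty vector and 0.674% with beta4. Of the 44, 1 was at least 2-fold higher with beta4, beside 1.94% of all 9539 measured genes, and 0 were 2-fold lower, beside 1.08%. Past a smaller difference of 0.32 on the log2 scale, 1 was higher and 4 were lower, beside 9.78% and 10.1% of all measured genes. The median log2 ratio of the 44 was -0.06 (95% interval -0.15 to 0.02) and that of all measured genes was -0.03. The interval is the binomial one for a median over genes and does not cover the spread between cultures. Of the 44, 43 lay within the 5th to 95th percentile of all measured genes, from -0.44 to 0.52. Genes that reached 20 FPKM in each library varied less. Of 3528 such genes 0.85% were at least 2-fold higher with beta4 and 0.822% at least 2-fold lower, and 7.34% were lower by 0.32 or more, 6.66% higher and 60.2% below 0. Of the 39 genes at that level here 0 were 2-fold different, 4 were lower by 0.32 or more, 0 were higher by that size and 25 were below 0.

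**Figure D3:**
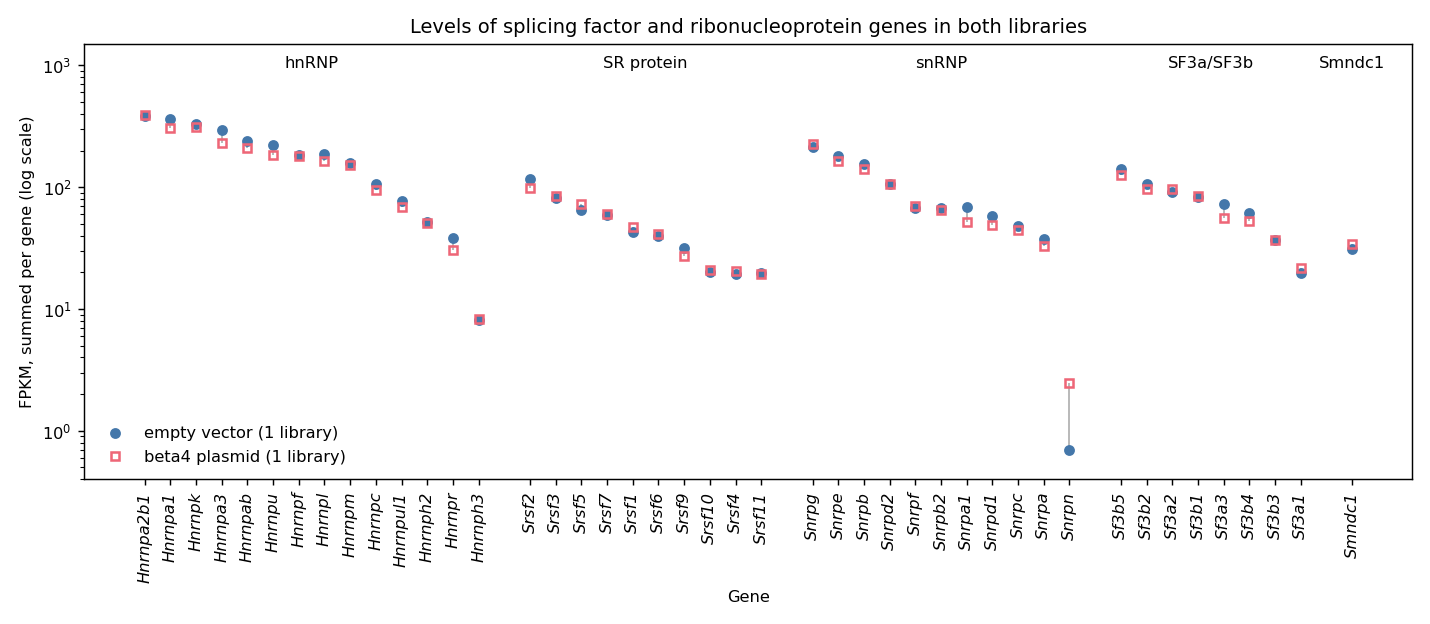
FPKM summed per gene on a log scale for the 44 measured genes, ordered within each class by mean level; blue circles are the empty vector library, open red squares the beta4 library, and a grey line joins the values of a gene. The symbols nearly coincide for most genes, and Snrpn, at 0.695 and 2.46 FPKM, is the gene with the widest gap.

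The hnRNP genes were the most abundant class, with a median of 186 FPKM with empty vector and 173 FPKM with beta4. Of the 14 genes 12 had a log2 ratio below 0, and 11 after rescaling the libraries to a median ratio of 1. Over all measured genes 55.4% were below 0, and 49.4% after the same rescaling. The class median was -0.16 (95% interval -0.28 to -0.02), and the median of all measured genes, -0.03, lies inside that interval. So does the median of genes that reached 20 FPKM in each library, -0.05, of which 60.2% were below 0. No gene of the class reached 2-fold. By 0.32 or more on the log2 scale 2 of the 14 were lower and 0 higher, beside 10.1% and 9.78% of all measured genes. Among genes that reached 20 FPKM in each library these shares were 7.34% and 6.66%. Hnrnpa2b1, which binds nascent RNA, was highest at 381 and 393 FPKM. It was one of the 2 hnRNP genes with a ratio above 0, with Hnrnph3 at 8.15 and 8.26 FPKM.

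Hnrnpa1, a widely studied repressor of exon inclusion, was at 360 FPKM with empty vector and 307 FPKM with beta4, a log2 ratio of -0.23. Hnrnpk, which binds C-rich RNA, was at 329 and 312 FPKM. Hnrnpu, which also binds chromatin, was at 222 and 183 FPKM, a log2 ratio of -0.28. All 3 were lower with beta4 by less than 0.32 on the log2 scale. The RefSeq annotation of GRCr8 lists 51 pseudogenes of Hnrnpa1, so reads of that gene can be split among near copies. The limit is not particular to Hnrnpa1, since 24 of the 45 genes have a listed pseudogene. Snrpc and Srsf3 come next with 10 each.

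The lowest log2 ratios of the class were those of Hnrnpa3 and Hnrnpr. Hnrnpa3 summed to 295 FPKM with empty vector and 231 FPKM with beta4, a log2 ratio of -0.35. The table puts this name on 2 loci. The 4 rows on chromosome 3, from 58352020 to 58360930, summed to 143 and 119 FPKM, and the 3 rows on chromosome 13, from 68872862 to 68875337, to 152 and 112 FPKM. Both loci were lower with beta4, with log2 ratios of -0.27 on chromosome 3 and -0.44 on chromosome 13. Reads shared between them cannot be assigned, so the single values are uncertain. Hnrnpr was at 38.3 and 30.2 FPKM, a log2 ratio of -0.33.

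The other hnRNP genes stood closer together. Hnrnpab was at 240 and 208 FPKM. Hnrnpl, which binds CA-rich RNA, was at 188 and 164 FPKM. Hnrnpm summed to 158 and 153 FPKM and Hnrnpul1 was at 77.4 and 68.5 FPKM. Each of these 4 was lower with beta4 by less than 0.32 on the log2 scale. Hnrnpc, which binds U-rich tracts, was at 106 and 95.5 FPKM, and a row of LOC100911576 with the same locus was at 34.8 and 29.7 FPKM. Hnrnph2 was at 52.1 and 50.4 FPKM.

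Of the 10 measured SR protein genes 7 had a log2 ratio above 0 and 3 below it, or 6 and 4 from the most abundant row of each gene. Their median log2 ratio was 0.05 (95% interval -0.21 to 0.14), and no gene passed 0.32 in either direction. After rescaling 2 were below 0. Of all measured genes 55.4% were below 0, and 49.4% after rescaling. The difference between the hnRNP and SR classes was not tested. Srsf2, a protein of nuclear speckles, was the most abundant at 117 FPKM with empty vector and 98.0 FPKM with beta4. It had the lowest ratio of the class, a log2 ratio of -0.25. Srsf9 was at 31.9 and 27.4 FPKM and Srsf11 at 19.7 and 19.5 FPKM. These 3 were the genes below 0.

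Srsf5 had the highest ratio of the class, at 65.0 and 72.3 FPKM, a log2 ratio of 0.15. Taken from its most abundant row alone the log2 ratio of Srsf5 was -0.11, so its direction depends on the rows summed. Srsf1, a founding SR protein with roles in both constitutive and alternative splicing, was at 42.5 and 46.9 FPKM, a log2 ratio of 0.14. Srsf3 was at 81.2 and 84.0 FPKM, Srsf7 at 58.6 and 60.7 FPKM, and Srsf6 at 40.1 and 41.1 FPKM. Srsf10, a splicing repressor when dephosphorylated, was at 20.001 and 20.7 FPKM, and Srsf4 at 19.4 and 20.6 FPKM. These 5 differed by a log2 ratio of 0.08 or less.

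**Figure D4:**
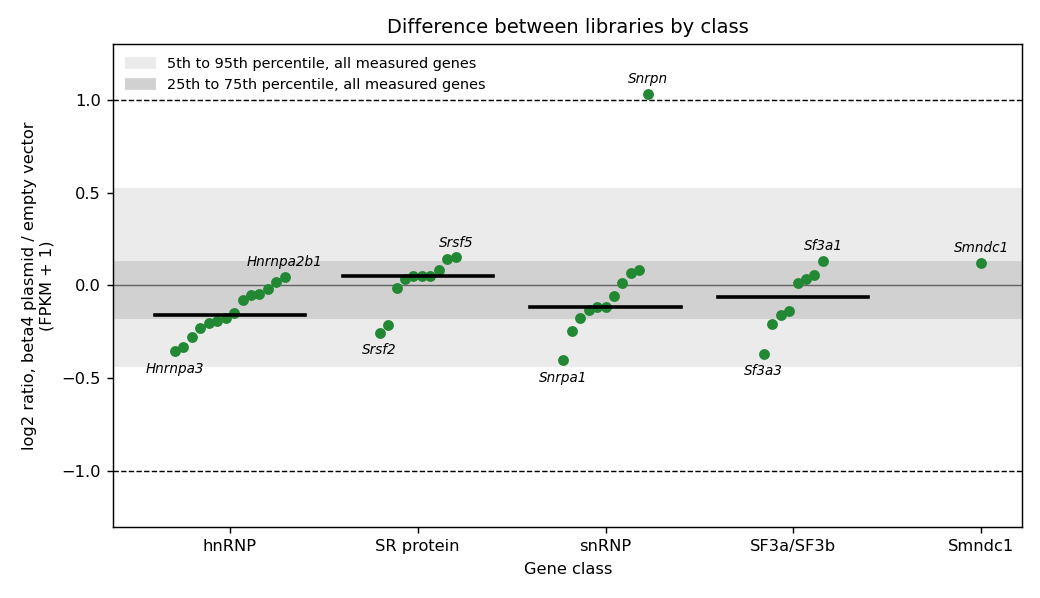
Log2 ratio of FPKM + 1, beta4 plasmid over empty vector, for each measured gene by class, sorted within a class; black lines are class medians, dashed lines 2-fold, and shading the 25th to 75th and 5th to 95th percentiles of all 9539 measured genes. The hnRNP median is -0.16 and the SR median 0.05, and Snrpn, at 1.03, is the single gene outside the wider band.

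Of the snRNP genes, Snrpn was the member that passed 2-fold, at a low level. It encodes SmN, a close relative of Sm protein B made mainly in brain and heart, and in mammals it is imprinted and shares a bicistronic transcript with Snurf. Snrpn was at 0.695 FPKM with empty vector and 2.46 FPKM with beta4. The beta4 value was 3.54 times the other, and the log2 ratio was 1.03. The authors' deposited table gave it a p-value of 0.430. With 5 FPKM added in place of 1 its log2 ratio was 0.39, under 2-fold.

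The 3 rows of Snurf carry the same locus as Snrpn, chromosome 1 from 111570585 to 111592893 on rn4. The most abundant was at 25.8 FPKM with empty vector and 29.0 FPKM with beta4, another at 0.490 and 2.35 FPKM, and the last at 0.0163 and 0.244 FPKM. Snurf summed to 26.3 and 31.6 FPKM, a log2 ratio of 0.26. The table does not tell reads of Snrpn from those of the transcripts that overlap it.

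The Sm ring that most spliceosomal snRNPs carry was represented by 6 genes. Snrpg was highest at 215 FPKM with empty vector and 228 FPKM with beta4. Snrpe was at 180 and 163 FPKM, Snrpb at 154 and 142 FPKM, and Snrpd2 at 105 and 106 FPKM. Snrpf was at 67.1 and 70.2 FPKM, and Snrpd1 was lowest at 58.3 and 48.9 FPKM. The highest of the 6 was 3.68 times the lowest with empty vector and 4.65 times with beta4, although their proteins enter the ring in equal number. Snrpd1 had the lowest log2 ratio of the ring, -0.25, and Snrpg the highest, 0.08. Of the ring, 3 of 6 were below 0. The deposited table holds no row under the symbol Snrpd3, the gene of the remaining ring protein.

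Among proteins of single particles, Snrpa and Snrpc of U1 were at 37.6 and 33.2 FPKM and at 47.9 and 44.2 FPKM. The partners Snrpa1 and Snrpb2 of the U2 particle were nearly equal with empty vector, at 68.2 and 67.2 FPKM. With beta4 they were at 51.3 and 64.6 FPKM. Snrpa1 had a log2 ratio of -0.40, the lowest of all 44 measured genes, and Snrpb2 one of -0.06. Snrpa1 lies on chromosome 1 from 120490909 to 120503973 on rn4. Its ratio lay inside the 5th percentile of all measured genes, -0.44, but outside the one for genes that reached 20 FPKM in each library, -0.37, and it was the 1 gene of the 39 to do so.

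The SF3 genes were evenly split, with 4 of 8 below 0 and a median log2 ratio of -0.06 (95% interval -0.37 to 0.13). Sf3a3 of the SF3a complex, at 73.0 FPKM with empty vector and 56.3 FPKM with beta4, was the member past 0.32, with a log2 ratio of -0.37. Its partners Sf3a2, at 92.1 and 95.9 FPKM, and Sf3a1, at 19.6 and 21.6 FPKM, were slightly higher with beta4. In the SF3b complex, Sf3b1, which contacts the branch point region, was at 82.7 and 84.6 FPKM and Sf3b3 at 36.7 and 37.0 FPKM. Sf3b4 was at 61.2 and 53.0 FPKM, Sf3b2 at 106 and 96.1 FPKM, and the small subunit gene Sf3b5 at 142 and 127 FPKM. The 5 SF3b genes spanned log2 ratios from -0.21 to 0.03.

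The 4 genes lower with beta4 by 0.32 or more on the log2 scale were thus Snrpa1, Sf3a3, Hnrnpa3 and Hnrnpr. Rescaling the libraries to a median ratio of 1, a shift of 0.04 on the log2 scale, left 2 genes past that size. 

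Splicing genes outside the naming rule were counted in lists written with the results of these data known. Of 63 measured core spliceosome genes, 0 were 2-fold different, 0 were higher and 6 lower by 0.32 or more on the log2 scale. The median of their log2 ratios was -0.04 (95% interval -0.11 to -0.0021), and the median of all measured genes, -0.03, lies inside that interval. Lsm3, of the ring on U6 small nuclear RNA, was at 94.2 FPKM with empty vector and 68.0 FPKM with beta4, and Magoh, of the exon junction complex, at 65.0 and 48.5 FPKM. The helicase gene Snrnp200 had the highest ratio, at 52.6 and 64.3 FPKM. The count of 6 in 63 is near the 10.1% of all measured genes that were lower by that size, while 0 in 63 is under the 9.78% that were higher.

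Of 47 measured regulators of alternative splicing, 0 were 2-fold different, 1 was higher and 0 were lower by 0.32 or more on the log2 scale, both under the 9.78% and 10.1% of all measured genes. The higher one was Mbnl2, a muscleblind gene, at 18.4 FPKM with empty vector and 25.2 FPKM with beta4. Tra2b, an SR-like activator, was at 63.2 and 77.0 FPKM, Qk at 92.3 and 111 FPKM, and the polypyrimidine tract binding gene Ptbp1 at 177 and 145 FPKM. The median log2 ratio was 0.01. Of 15 measured genes for kinases, phosphatases and import receptors of SR proteins, 2 were higher by that size, Clk4 at 7.32 and 10.6 FPKM and Dyrk1b at 3.12 and 4.82 FPKM, and 0 were lower. Both counts stand beside the same 9.78% and 10.1%.

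Of 16 measured genes of the SMN complex and snRNP assembly, 11 were below 0 and 2 were lower by 0.32 or more, the import adaptor gene Snupn at 5.63 and 3.72 FPKM and Gemin6 at 9.89 and 7.49 FPKM. Of all measured genes 55.4% were below 0 and 10.1% lower by that size, so the count of 2 is near the background. Their median log2 ratio was -0.11 (95% interval -0.22 to 0.06). Of 9 measured genes of nonsense-mediated decay, the pathway that removes transcripts with early stop codons, 0 were 2-fold different and 5 were below 0. By 0.32 or more on the log2 scale 1 was higher and 1 lower, beside 9.78% and 10.1% of all measured genes. The median log2 ratio of the 9 was -0.06 (95% interval -0.27 to 0.24). Magoh and Rbm8a stand in both this list and the core list.

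Hnrnpk is the host gene of a microRNA. The table lists Mir7a-1 with the locus of Hnrnpk on chromosome 17 from 12196629 to 12205720, and RefSeq on GRCr8 places its mature forms inside Hnrnpk. The mature sequences are shown because they separate the microRNA from its host, with the seed, bases 2 to 8, in capitals.
rno-miR-7a-5p: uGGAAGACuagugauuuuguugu
rno-miR-7a-1-3p: aCAACAAAucacagucugccau

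Mir7a-1 was at 24.5 FPKM with empty vector and listed at 0 with beta4, while Hnrnpk was nearly level. The authors' deposited table gave Mir7a-1 a p-value of 0.480. Of 170 measured microRNA precursors 68.2% were at least 2-fold different in either direction, so passing 2-fold was common among such short features. How often they differed by as much as Mir7a-1 was not counted.

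Unnamed rows beside these genes were looked at after the values were seen. Within 2000 bases of the 45 genes lay 10 unnamed rows, beside 6 of the genes, of which 7 were lower with beta4 and 3 higher. Past 2-fold were 3, all of them lower, and the authors' deposited table marked 0 of the 10. Of all 13533 unnamed rows 44.7% were lower, 7.39% were at least 2-fold lower and 13% at least 2-fold higher. A row spanning 97 bases beside Hnrnpa1, on chromosome 7 from 142149485 to 142149582, was at 360 FPKM with empty vector and 27.9 FPKM with beta4. A row spanning 192 bases beside Hnrnpa2b1, on chromosome 4 from 79705680 to 79705872, was at 31.5 FPKM and listed at 0. A row spanning 278 bases beside Snrpa, on chromosome 1 from 82275074 to 82275352, was at 11.1 and 3.74 FPKM. The 3 genes beside them were all within 0.32 on the log2 scale.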

How the data were processed

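RNA of 2 libraries of H9c2 cells, 1 per group by the sample titles, was purified with a column kit and sequenced by standard Illumina protocols, per the labels' protocols. The deposited read counts and their footnote state that a 3′ adaptor was removed and that reads shorter than 10 bases were dropped. The submitters' processing notes list TopHat 1.4.1 and the rat build rn4. No source used here gives the transcript quantifier. The authors' deposited table gives 1 value per transcript row and library, read as FPKM, and each row also has a p-value and q-value. Whether its start positions count from 0 or 1 is not stated.

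Values were summed per symbol; 13533 rows without a gene name and 17 with a date in its place were left out. The measure was log2((FPKM + 1)/(FPKM + 1)), with a minimum of 1 FPKM in at least 1 library. Genes were called at 2-fold, and a smaller size of 0.32 on the log2 scale was counted beside it. Transcript shares were computed for genes of 2 or more rows and 5 FPKM or more in both libraries. Reads per row are not known, so no counting interval is given. The rule for named genes took Smndc1, the 4 highest and 4 lowest log2 ratios and the 3 most abundant genes of each class, genes with a share shift of 10 points or more or a marked row, and up to 3 at each end of every other list; the remaining members were added so that each of the 45 has a value. Intervals of medians are 95% binomial order-statistic intervals. The value of 1 gene that this rule names in the other lists is not reported here. The members, lists and alternatives were chosen with earlier results of these data known. All 45 symbols matched the RefSeq table of GRCr8. The counting steps were tested on simulated data. Computation used Python 3.11.15, numpy 2.4.6, pandas 2.3.3, scipy 1.17.1 and matplotlib 3.10.9.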

Additional observations from a re-analysis of the deposited data

How the results depend on the processing

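No paired analysis was possible because each group holds 1 library, and for the same reason no library could be left out. Alternatives were 0.1 or 5 FPKM added, no minimum or one of 5 FPKM, the most abundant row per gene, and rescaling to a median ratio of 1. The number of genes 2-fold higher was 0 in place of 1 with 5 FPKM added and with a minimum of 5 FPKM. The number higher by 0.32 or more on the log2 scale was 0 in place of 1 with a minimum of 5 FPKM, and the number of rows 2-fold higher was then 1 in place of 2. All of these turn on Snrpn, whose level is below 5 FPKM. The number lower by that size was 2 in place of 4 after rescaling. The other 55 of 60 summary values stayed within 1.5 times the count or inside the interval of the median. Of single genes, Hnrnpm and Srsf5 had a log2 ratio of the other sign from the most abundant row, 0.07 and -0.11. Restricting Hnrnpa3 to chromosome 3, chosen after the data were seen, gave -0.27. With 1 library per group, the precision of a difference is not known.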
